A study of Trichoderma reesei QM6a with 4 samples.

Results

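Copper enzymes carry copper in the active site, and 6 such genes of the filamentous fungus Trichoderma reesei were followed here on expression arrays. They were ASTRICH124079, ASTRICH122948 and ASTRICH102820, listed as laccases and multicopper oxidases, ASTRICH50793 and ASTRICH45445, listed as tyrosinases, and ASTRICH123029, which is sod1, the Cu/Zn superoxide dismutase. Members were picked out by these array gene names, 6 of the 9127 genes on the array, with 29 of its 43565 probes. The list was drawn up with earlier results of these data known. All 6 shared their number with a RefSeq locus tag of strain QM6a, but the RefSeq gene table gave a symbol to sod1 only. The enzyme class of the other 5 was taken from the member list and was not checked on protein sequence.

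The strains compared were AT01 and its wild type. AT01 is described by the submitters as a mutant that accumulates copper to a high degree, and how it was made is not given in the sources used here. Mycelium of both strains was harvested after 5 days of culture in YPD, a rich yeast medium, at 25 °C, and the medium held 1 mM CuSO4. Every culture thus received copper, and the arrays compare strains under copper, not copper with its absence. Each strain had 2 one-colour Agilent arrays, labelled with Cy3 and placed on 1 slide.

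Laccases and other multicopper oxidases take electrons from phenols or metal ions and pass them to oxygen, and in fungi they take part in pigment formation, lignin breakdown and the handling of toxic phenols. Tyrosinases hydroxylate phenols and oxidise the products to quinones, the building blocks of melanin. Cu/Zn superoxide dismutase turns superoxide into hydrogen peroxide and oxygen. All of them need copper to work, while free copper is toxic because it promotes the formation of reactive oxygen species.

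Brightness differed between the strains, and this touches every value below. The 75th percentile of the processed signal, the background-subtracted brightness of a spot, was 41.5 and 39.6 on the AT01 arrays, against 20.9 and 22.2 on the wild-type arrays. Of all probes, 61.0% and 60.3% lay well above background in AT01, against 48.0% and 46.0% in wild type. Signals were therefore divided by that percentile and put on a log2 scale, called the scaled level below. On this scale the median log2 fold change, AT01 minus wild type, was -0.22 over the 8005 genes tested, and -0.02 after quantile normalization. It also moved with brightness. With the tested probes cut into 10 classes of equal size by brightness, the median was -0.77 in class 10, the brightest, between -0.088 and 0.01 in classes 2 to 8, and 0.66 in class 1. Pearson's r across genes was 0.991 within AT01, 0.988 within wild type and 0.942 to 0.951 between strains. Genes are no independent replicates in such a correlation. The mycelial genes hfb1 and gpd1 were well above background with all 4 and all 5 of their probes on every array. They moved in opposite directions, with log2 fold changes of 0.57 for hfb1 and -0.60 for gpd1 (limma, Benjamini-Hochberg adjusted p = 0.0114 and 0.00971). After quantile normalization these were 0.59 and -0.36 (adjusted p = 0.0168 and 0.0837). The spore hydrophobin gene hfb2 was so with 2 of its 4 probes on each AT01 array and 1 on each wild-type array, with a log2 fold change of 0.02 (limma, Benjamini-Hochberg adjusted p = 0.924).

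Of the 6 copper enzyme genes, 5 could be tested, since in a strain both arrays had measured 1 probe or more well above background. The multicopper oxidase gene ASTRICH102820 was called higher on the average of 4 probes, with a log2 fold change of 1.25 ± 0.13 (SE, n = 2 arrays per strain), but 6 of the 8 wild-type spots behind it were not well above background. For that average only a bound follows, 1.14-fold higher in AT01, a point value that was not tested. Most of the 4 probes passed the filter through AT01 alone. The average leaves out the gene's brightest probe, CUST_1785_PI425855205, which was flagged as outlying on AT01 array 2. With that spot kept, the probe's log2 fold change was -1.0, and -0.15 and not called after quantile normalization. Its level lies in the range of brightness class 10, whose median was -0.77. The bound covers those 4 probes and not the gene. Neither of the gene's 2 probes measured in wild type was higher in AT01 by the test. The tyrosinase gene ASTRICH50793 and sod1 were called lower, at -0.78 ± 0.13 and -0.43 ± 0.13 on the log2 scale, and neither call held after quantile normalization. For ASTRICH50793 that average rests mostly on dim spots, to which the scaling alone gives a difference of up to -0.89. ASTRICH122948 and ASTRICH45445 were not called, and ASTRICH124079 gave no signal well above background. A gene was called where limma gave it a p under 0.05 after Benjamini-Hochberg adjustment over all 8005 genes. Thus 1 of the 5 was called higher, where 14.8% of all tested genes were, and 2 were called lower, where 32.2% were (47% in either direction). After quantile normalization 1 was called higher and 0 lower, where 15.2% and 11% of all genes were. A common lower limit for dim spots left 1 higher and 1 lower, where 15.2% and 16.3% were, and limma on the values of the authors' deposited table gave 1 higher and 0 lower, where 15% and 14.9% were. With 5 genes tested, these counts are too small to stand apart from such shares. Scaled levels of the 2 strains did not overlap in any of the 5 genes, as in 76.1% of all genes tested, so that separation says little at this number of arrays. Whether the arrays of 1 strain stand for different cultures is not stated in the labels, and the p-values may therefore reflect technical spread only.

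**Figure D1:**
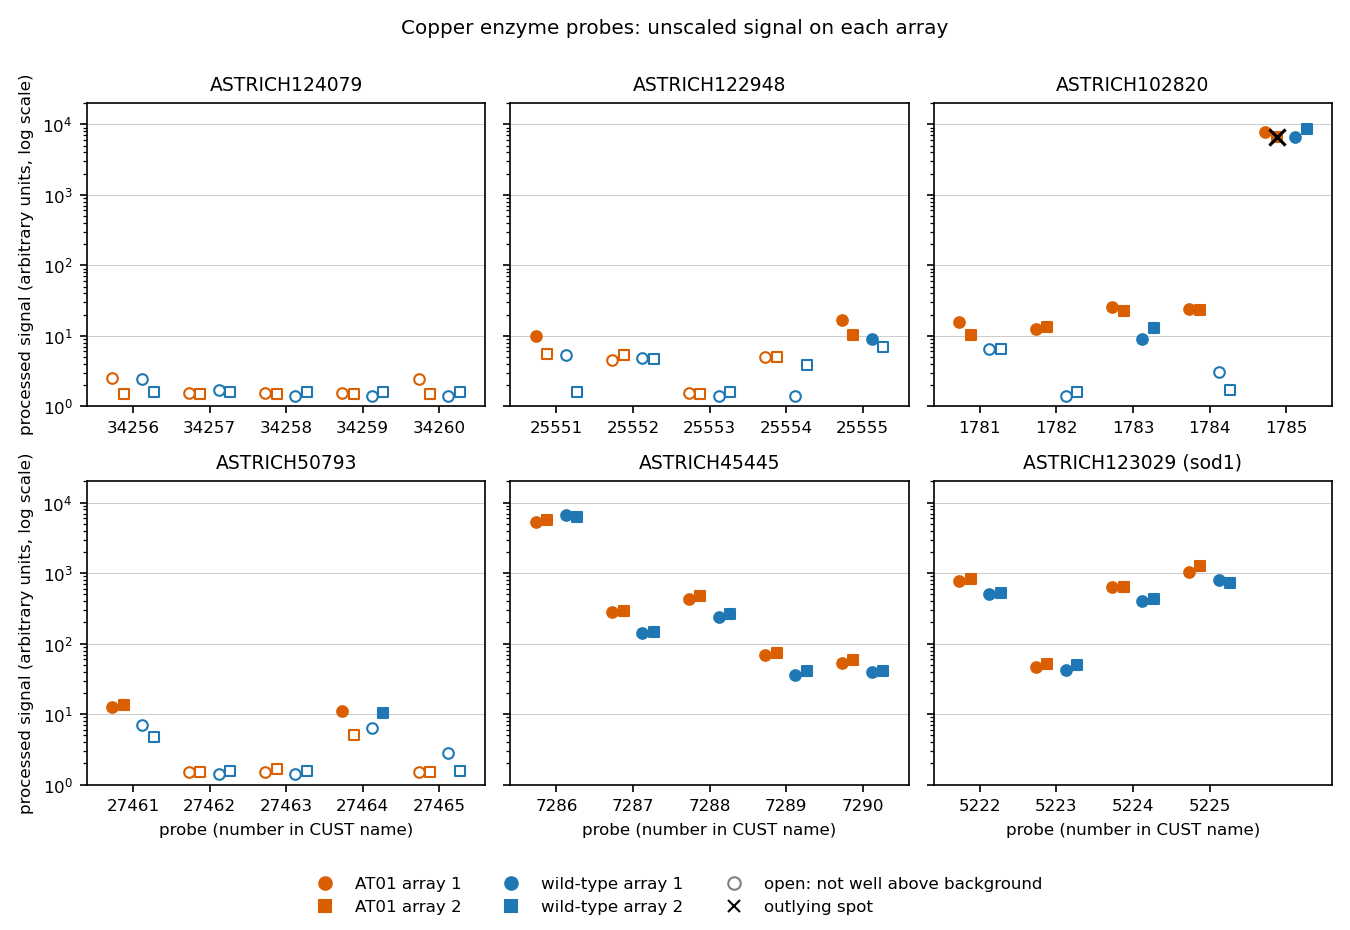
Unscaled processed signal (log axis) of the 29 probes of the 6 copper enzyme genes on the 2 AT01 arrays (orange) and the 2 wild-type arrays (blue), with open symbols for spots not well above background and a cross on the 1 outlying spot. All spots of ASTRICH124079 are open, all spots of ASTRICH45445 and sod1 are filled, and the AT01 spots of CUST_1782_PI425855205 and CUST_1784_PI425855205 (ASTRICH102820) stand between 12.4 and 24.1 over open wild-type spots between 1.42 and 3.06.

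ASTRICH102820 was the listed multicopper oxidase gene with most probes detected. Its scaled level, averaged over 4 probes, was -1.15 and -1.27 on the AT01 arrays, against -2.39 and -2.53 on the wild-type arrays. Both AT01 arrays lay above both wild-type arrays, and the adjusted p was 0.00167 (limma, Benjamini-Hochberg), with a 95% interval of 0.94 to 1.56 for the log2 fold change. The 4 probes were not alike. Probe CUST_1784_PI425855205 read 24.1 and 23.6 in AT01, against 3.06 and 1.69 in wild type, as unscaled processed signal. Probe CUST_1782_PI425855205 read 12.4 and 13.3 in AT01, against 1.42 and 1.57 in wild type, where both readings are the lowest value of their array. Neither probe was well above background on a wild-type array, and both were on both AT01 arrays.

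Where wild type was not measured, only a bound can be given. For it, each wild-type reading was raised to its array's lowest signal well above background where it was below that signal. By this bound CUST_1784_PI425855205 was at least 1.70-fold higher in AT01, and at least 1.67- to 1.74-fold with 1 array left out. The bound itself was not tested. The probe entered the test through AT01 alone, and its unraised readings gave an adjusted p of 0.0146 (limma, Benjamini-Hochberg, over 25102 probes). That p sets AT01 against wild-type readings near the lower limit, and it was 0.114 and 0.135 without AT01 array 1 and 2. For CUST_1782_PI425855205 the bound fell under 1, so no fold is given. With the 6 dim wild-type spots of the 8 raised to that limit, the bound for the average over the 4 probes was 1.14-fold higher in AT01. It compares -1.15 and -1.27 in AT01 with -1.47 and -1.33 in wild type, and it was not tested. That bound does not cover the gene's brightest probe, CUST_1785_PI425855205, described below. The size of the gene's fold change thus rests on wild-type spots near background.

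Of the other probes of ASTRICH102820, CUST_1783_PI425855205, well above background on all 4 arrays, read 25.8 and 22.6 in AT01, against 9.03 and 12.7 in wild type. Its log2 fold change was 0.26 ± 0.20 (SE, n = 2 arrays per strain; limma's Benjamini-Hochberg adjusted p = 0.346). CUST_1781_PI425855205 read 15.9 and 10.4 in AT01, against 6.45 and 6.54 in wild type. It too was not well above background on either wild-type array and its bound fell under 1, so no fold is given. The unscaled signal of CUST_1783_PI425855205 was 2.23 times as bright in AT01, near the 1.88 by which the 75th percentile differed.

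The remaining probe of ASTRICH102820, CUST_1785_PI425855205, read 7754 and 6543 in AT01, against 6635 and 8608 in wild type. The scanner software marked its spot on AT01 array 2 as outlying, and the probe was left out of the average on all arrays. With that spot kept, the probe's log2 fold change was -1.0 ± 0.18 (SE, n = 2 arrays per strain; limma's Benjamini-Hochberg adjusted p = 0.0197), and -0.15 ± 0.16 after quantile normalization (adjusted p = 0.530). The gene's log2 fold change was then 0.80 (limma's Benjamini-Hochberg adjusted p = 0.00491). Leaving out the single spot instead, so that AT01 array 2 was averaged over the dim probes alone, gave -0.063 (adjusted p = 0.934), since the average then ran over unequal sets of probes. In the authors' deposited table this probe read 12.81 and 12.73 in AT01, against 12.78 and 13.05 in wild type, on a log2 scale.

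ASTRICH122948, another of the listed multicopper oxidase genes, was dim. Its brightest probe, CUST_25555_PI425855205, read 17.0 and 10.2 in AT01, against 8.96 and 6.95 in wild type. That probe was well above background on both AT01 arrays and on wild-type array 1, and its log2 fold change was -0.18 ± 0.30 (SE, n = 2 arrays per strain; limma's Benjamini-Hochberg adjusted p = 0.667). The gene passed the filter through the AT01 arrays only. Averaged over 5 probes, its scaled level was -2.88 and -3.08 in AT01, against -2.61 and -2.82 in wild type, a log2 fold change of -0.27 with a 95% interval of -0.61 to 0.08. The adjusted p was 0.168 (limma, Benjamini-Hochberg), and the interval spans no change.

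ASTRICH124079 had no probe well above background on any array. Its 20 spots read between 1.502 and 2.497 in AT01, against 1.42 to 2.41 in wild type, and 4 of them were significantly above local background. Of its 5 probes, 2 sat at the lowest reported value on all 4 arrays. Such probes, 4066 on the array and 4 among the members, show a scaled difference of -0.89 between AT01 and wild type, which comes from the scaling alone. The gene was therefore not tested, and no fold is given. Among the listed laccases and multicopper oxidases, then, 1 of 3 gave signals well above background with most of its probes in AT01, and none with most of its probes in wild type.

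Of the tyrosinase genes, ASTRICH45445 was well measured and ASTRICH50793 was not. All 5 probes of ASTRICH45445 lay well above background on all 4 arrays. Its scaled level was 2.83 and 3.01 in AT01, against 3.26 and 3.23 in wild type, and the log2 fold change of -0.33 ± 0.13 did not pass the test (SE, n = 2 arrays per strain; limma's Benjamini-Hochberg adjusted p = 0.0788; 95% interval -0.64 to -0.02).

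The probes of ASTRICH45445 differed in their changes. The brightest, CUST_7286_PI425855205, read 5245 and 5765 in AT01, against 6618 and 6296 in wild type, and its scaled level fell, with a log2 fold change of -1.15 ± 0.16 (SE, n = 2 arrays per strain; limma's Benjamini-Hochberg adjusted p = 0.0153). It belongs to brightness class 10, whose median was -0.77, and after quantile normalization its log2 fold change was -0.29 (adjusted p = 0.280). CUST_7288_PI425855205 read 430 and 470 in AT01, against 240 and 261 in wild type. CUST_7287_PI425855205 read 281 and 288 in AT01, against 142 and 146 in wild type. They and CUST_7289_PI425855205 kept log2 fold changes between -0.07 and 0.07, none called. CUST_7290_PI425855205, at 52.6 and 58.0 in AT01 against 40.0 and 40.6 in wild type, had a log2 fold change of -0.46 ± 0.16, also not called (limma's Benjamini-Hochberg adjusted p = 0.0810). Unscaled, 4 of the 5 probes were 1.37 to 1.98 times as bright in AT01 as in wild type, and the brightest was 0.853 times as bright.

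For ASTRICH50793, the call of a lower level and the detection of its probes point in different ways. The scaled level over 5 probes was -3.58 and -3.71 in AT01, against -2.78 and -2.96 in wild type (limma's Benjamini-Hochberg adjusted p = 0.00598). Only CUST_27461_PI425855205 was well above background on both arrays of a strain, AT01, where it read 12.6 and 13.5, against 7.05 and 4.76 in wild type. Its bound fell under 1, so no fold is given. CUST_27464_PI425855205 read 10.99 and 5.02 in AT01, against 6.42 and 10.3 in wild type, so the strains overlapped, and 1 array of each strain measured it. The other 3 probes read at most 1.69 in AT01, against 2.85 in wild type, at or close to the lowest reported value, where the scaling alone gives a difference of up to -0.89. With a common lower limit of -3.82 for dim spots the log2 fold change of the gene was -0.25 (limma's Benjamini-Hochberg adjusted p = 0.188), so the call was lost.

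**Figure D2:**
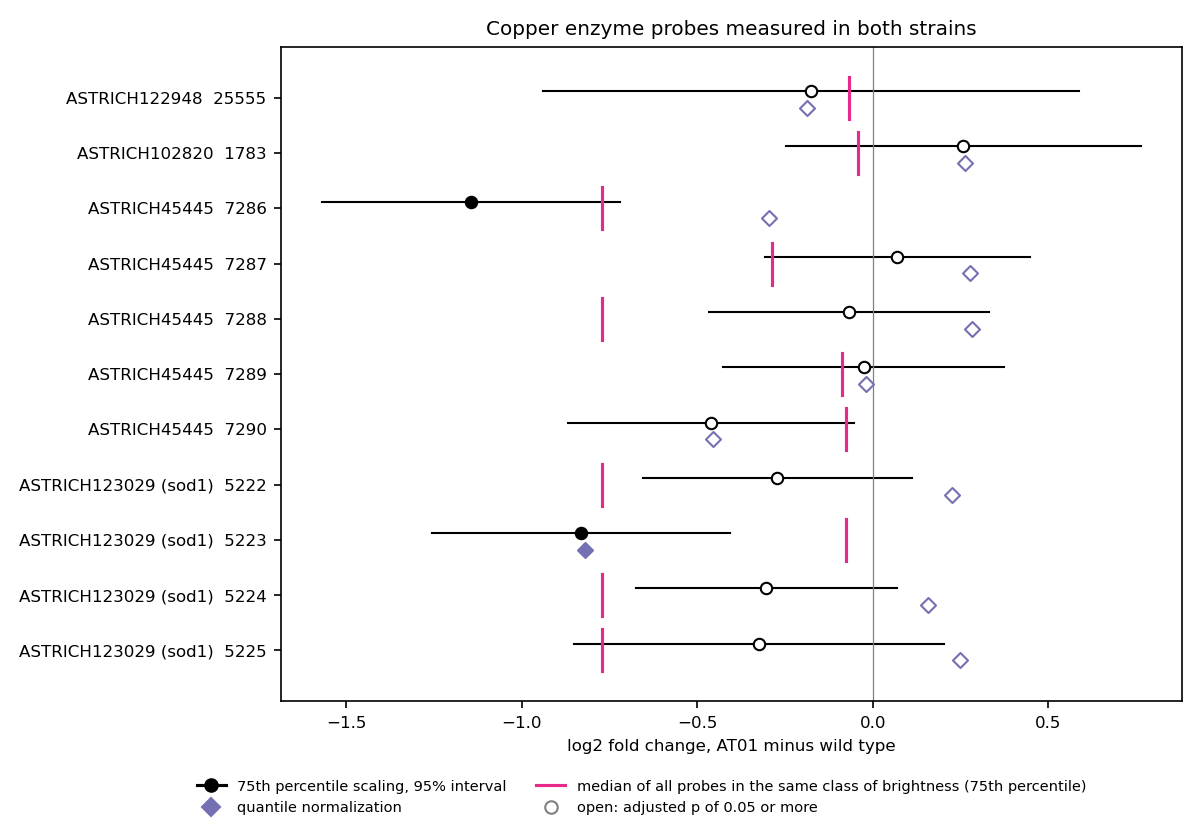
Log2 fold change, AT01 minus wild type, of the 11 tested copper enzyme probes measured on at least 1 array of both strains, with 75th percentile scaling (black, bars for the 95% interval, n = 2 arrays per strain) and with quantile normalization (purple), filled where the adjusted p was under 0.05, with the median of all probes of like brightness as a pink line. CUST_5223_PI425855213 (sod1) is lower under both scalings, while CUST_7286_PI425855205 (ASTRICH45445) is called lower with 75th percentile scaling only.

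The superoxide dismutase gene sod1 was measured well above background with all 4 probes on all arrays. Its scaled level was 3.24 and 3.44 in AT01, against 3.78 and 3.76 in wild type. Both AT01 arrays lay below both wild-type arrays, and the adjusted p was 0.0352 (limma, Benjamini-Hochberg), with a 95% interval of -0.75 to -0.12. Of the 4 sod1 probes, 3 belong to brightness class 10, whose median of -0.77 was a larger fall. Leaving out any single array ended the call, with log2 fold changes of -0.53 to -0.33.

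Those 3 probes moved alike. CUST_5225_PI425855213 read 1026 and 1282 in AT01, against 804 and 723 in wild type, as unscaled signal. CUST_5222_PI425855213 read 784 and 824 in AT01, against 503 and 528 in wild type, and CUST_5224_PI425855213 read 633 and 639, against 399 and 434. Their unscaled signals were 1.51 to 1.56 times as bright in AT01, and their log2 fold changes of -0.32 to -0.27 were not called. After quantile normalization the 3 lay at 0.16 to 0.25, again not called, with adjusted p of 0.329 to 0.447 (limma, Benjamini-Hochberg).

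The dimmest sod1 probe differed from these. CUST_5223_PI425855213 read 46.4 and 51.1 in AT01, against 42.2 and 50.1 in wild type, so its unscaled signals overlapped while the array as a whole was brighter in AT01. Its scaled level fell, with a log2 fold change of -0.83 ± 0.16 (SE, n = 2 arrays per strain; limma's Benjamini-Hochberg adjusted p = 0.0234). The fall was -0.82 after quantile normalization (adjusted p = 0.0299), and probes of its brightness class, 7, had a median of -0.076. Leaving out either AT01 array ended the call (-0.73 and -0.94), as it did for CUST_7286_PI425855205 (-1.04 and -1.25). Across the members, 2 of 15 tested probes were called higher, where 15.2% of all tested probes were, and 2 were called lower, where 17.2% were. The 2 called higher are CUST_1782_PI425855205 and CUST_1784_PI425855205, which passed the filter through AT01 alone, so their calls are no support for a rise. Both lie in brightness class 1, where the median was 0.66 and 30% of all probes were called higher. After quantile normalization the counts were 2 higher, against 14.2% of all tested probes, and 1 lower, against 9.23%.

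Detection leaned toward AT01 among the copper enzyme probes as it did on the whole array. Of the 29 probes, 4 were well above background on both AT01 arrays and on neither wild-type array, namely 3 of ASTRICH102820 and 1 of ASTRICH50793, where 9.02% of all probes were. None of the 29 showed the opposite pattern, where 0.17% of all probes did. The part of array brightness in these detections was not tested.

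Gene averages varied with the processing to different degrees. ASTRICH102820 was called higher in 16 of the 19 alternatives run, and in each of these its value drew on wild-type spots near background. The exceptions were normexp background correction (-0.017), the brightest unflagged probe alone (0.26) and the outlying spot left out by itself. Of these, the brightest unflagged probe, CUST_1783_PI425855205, was well above background on all 4 arrays. In the authors' deposited table it was 0.72 (limma on those values, Benjamini-Hochberg adjusted p = 0.0125). sod1 was called lower in 7 of 19 and ASTRICH50793 in 11 of 18. ASTRICH45445 was called in 2 of 19 and ASTRICH122948 in 1 of 18.

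**Figure D3:**
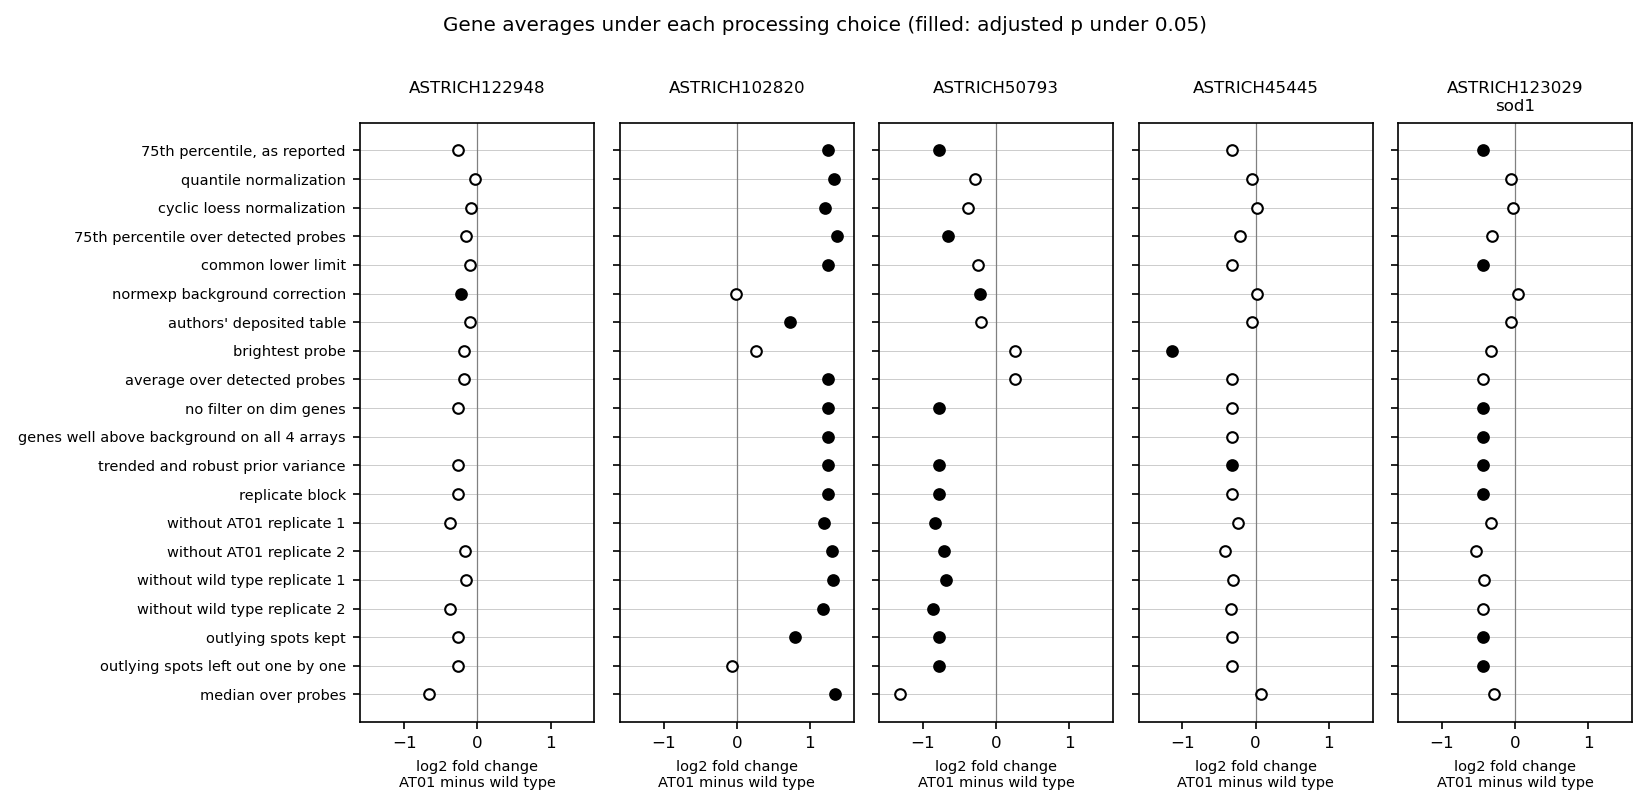
Log2 fold change of each tested gene average, AT01 minus wild type, with the scaling used here in the top row and each alternative below it (filled, adjusted p under 0.05). ASTRICH102820 lies between -0.063 and 1.37, and sod1 between -0.53 and 0.044.

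Other copper enzymes could be set beside these by symbol only. The lytic polysaccharide monooxygenase genes cel61a and cel61b encode copper enzymes that cut cellulose by oxidation. Of the 2, cel61a was called lower and neither was called higher, where 32.2% of all tested genes were called lower and 14.8% higher. With 2 genes, such counts cannot stand apart from these shares. The scaled level of cel61a was -2.06 and -2.20 in AT01, against -1.31 and -1.22 in wild type (log2 fold change -0.86 ± 0.13, SE, n = 2 arrays per strain; limma's Benjamini-Hochberg adjusted p = 0.00401). After quantile normalization cel61a was still called lower, at -0.86 (adjusted p = 0.00789, limma). On each array 3 of the 5 probes of cel61a were well above background, so its average also draws on dim spots. The level of cel61b was -2.55 and -2.43 in AT01, against -2.69 and -2.70 in wild type (0.20 ± 0.13, adjusted p = 0.221 by limma with Benjamini-Hochberg adjustment). With quantile normalization cel61b was called higher, at 0.49. Of its 5 probes, however, 2 and 3 were well above background on the AT01 arrays and only 1 on each wild-type array. That call thus rests in part on dim wild-type spots.

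Among the 213 other tested genes with a symbol, the nearest in pattern to each member were found by the Euclidean distance of centred scaled levels over the 4 arrays. For ASTRICH102820 they were rho3 at 0.20 and mus8 at 0.56. For ASTRICH50793 they were spe3 at 0.13 and gbg1 at 0.14, and for ASTRICH122948 acu9 at 0.10 and snf1 at 0.14. The nearest to ASTRICH45445 were hh4.2 at 0.041 and chi18-8 at 0.048. For sod1 they were fdh1 at 0.025 and acs1 at 0.043, with log2 fold changes of -0.43 each. Genes near a member by this distance have like log2 fold changes by construction, so that likeness is no separate result. For ASTRICH102820, ASTRICH50793 and ASTRICH122948 the pattern also draws on spots near background. The distances rest on 4 arrays that all genes share.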

How the data were processed

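Feature Extraction (Agilent, 10.5.1.1) is the tool named per the submitters' processing notes. Per the file headers, the deposited intensity of a spot is its processed signal, linear and already background-subtracted, with a lowest value shared by dim spots. The authors' value table appears from its values to hold log2 signals. It covered 28201 probes and 18 of the 29 member probes, and had been normalized between arrays by a method not given in the sources used here. For bright member probes its strain differences matched those of quantile normalization, such as -0.29499 in both for CUST_7286_PI425855205. The deposited values are thus no separate check on quantile normalization for such probes. Dim probes differed, such as CUST_1782_PI425855205 at 0.83 in the deposited values and 2.63 after quantile normalization.

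Processed signals were log2-transformed after division by each array's 75th percentile over probes, control and outlying spots left out (39 and 117 in AT01, 13 and 24 in wild type). No spot was saturated. The 142 probes with an outlying spot were left out of gene averages on all arrays, so that each array was averaged over the same probes. Genes and probes were tested in limma (3.58.1, under R 4.3.3; functions lmFit and eBayes), and p-values were adjusted by Benjamini-Hochberg. The fit was tested on simulated data. All arrays shared 1 slide and 1 scan, so neither could serve as a block. The files hold median spot signals, so normexp used these with an offset of 50.

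Members, lists and tests were chosen with earlier results of these data known. Of 9 lists, those based on protein signatures could not be built, and the symbol list of cel61a and cel61b was used. Named were all members, these 2 genes and the 2 genes with a symbol nearest to each tested member. Mycelium and spore markers were matched by symbol, and tef1, act1 and pks4 were not used here. Array genes were matched to RefSeq by number (9070 of 9127, 99.4%). Alternatives named as kept outlying spots, single outlying spots left out, the median over probes and bounds with an array left out were added after seeing the data.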

Additional observations from a re-analysis of the deposited data

How the results depend on the processing

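The number of arrays, 2 per strain, and signals near background limit ASTRICH124079, ASTRICH122948, ASTRICH50793 and the wild-type levels of ASTRICH102820. The count of copper enzyme genes called higher, 1, was 0 with normexp, the brightest probe or single outlying spots left out. The count called lower, 2, was 0 with quantile normalization, cyclic loess, the deposited values, detected probes or the median over probes. It was 1 with the percentile over detected probes, the common lower limit, the brightest probe or genes above background on all arrays, and 1 without any single array (1 higher each time). It was 3 with no filter on dim genes, which adds ASTRICH124079 at -0.86, a size the scaling alone gives to spots at the lowest value, and 3 with the trended prior variance. Over all genes, 1188 were called higher and 2577 lower. Those called higher were 676 with the median over probes. Those called lower were 882 with quantile normalization, 895 with cyclic loess, 1307 with the common lower limit, 4739 with normexp, 1190 in the deposited values and 821 with the median over probes. Without 1 array the counts were 605 to 1121 higher and 1182 to 2214 lower.

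Reversed log2 fold changes were -0.017 (normexp) and -0.063 (single outlying spots left out) for ASTRICH102820, 0.25 (brightest probe) and 0.25 (detected probes) for ASTRICH50793, both from a probe measured in AT01 only, 0.018 (cyclic loess), 0.014 (normexp) and 0.070 (median over probes) for ASTRICH45445, and 0.044 (normexp) for sod1. Calls were lost, whatever the size of the value, for ASTRICH102820 with the brightest probe (0.26), and for ASTRICH50793 with quantile normalization (-0.29), cyclic loess (-0.39), the common lower limit (-0.25), the deposited values (-0.21) and the median over probes (-1.31, a larger fall with a larger error). The call of sod1 was lost with quantile normalization (-0.047), cyclic loess (-0.020), the percentile over detected probes (-0.32), the deposited values (-0.047), the brightest probe (-0.32), detected probes (-0.43, the same value as with all its probes, since all were detected) and the median over probes (-0.29). Newly past the threshold were ASTRICH122948 with normexp (-0.22) and ASTRICH45445 with the brightest probe (-1.15) and the trended prior variance (-0.33). Except where the alternative's construction shows it, the cause was not tested. Of single probes, CUST_7286_PI425855205 lost its call with quantile normalization (-0.29) and in the deposited values (-0.29). With quantile normalization and in the deposited values alike, reversals were 0.28 for CUST_7288_PI425855205, 0.25 for CUST_5225_PI425855213, 0.16 for CUST_5224_PI425855213 and 0.22 for CUST_5222_PI425855213. For these bright probes both settings gave nearly identical values, so they do not count as separate checks.

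Without 1 array, log2 fold changes ran from -0.53 to -0.33 for sod1, from -1.25 to -1.04 for CUST_7286_PI425855205 and from -0.94 to -0.73 for CUST_5223_PI425855213. They changed sign from -0.51 to 0.16 for CUST_25555_PI425855205, from -0.16 to 0.028 for CUST_7288_PI425855205 and from -0.11 to 0.060 for CUST_7289_PI425855205. The strain left with 1 array is then assumed to vary like the other.

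Same-numbered arrays of the strains showed no shared deviation (r = 0.006 across genes). With 2 arrays per strain this cannot exclude that the numbers pair them. With a replicate block the counts were 1 higher and 2 lower among the members, and 1267 higher and 2885 lower over all genes. A slide or scan block was not run, since the arrays shared both, and ASTRICH122948 and ASTRICH50793 have no value where all arrays had to measure a gene.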

Other observations

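In the RefSeq gene order the 6 copper enzyme genes had 12 direct neighbours, of which 10 were tested. Of these, 2 were called higher and 3 lower in AT01 (limma, Benjamini-Hochberg), where 14.8% and 32.2% of all tested genes were (47.0% in either direction). With 10 genes tested, such counts cannot stand apart from these shares. Values of the neighbours after quantile normalization are not given. The locus next to ASTRICH102820, TRIREDRAFT_54962, had a log2 fold change of 1.49 (limma's Benjamini-Hochberg adjusted p = 0.00245), and the locus on the other side, TRIREDRAFT_74026, one of -0.08 (adjusted p = 0.642). Next to the tyrosinase gene ASTRICH45445, TRIREDRAFT_36159 had 1.26 (adjusted p = 0.00292) and TRIREDRAFT_104322 had -0.91 (adjusted p = 0.00988). These neighbours were singled out after their values were seen, and the table gives none of them a symbol.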
